A study of Caenorhabditis elegans with 26 samples.

Results

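Within the hourly course of C. elegans larval growth called course A, 2 opposite phases of the 8 h cycle were set against each other, gene by gene. The members were chosen by the time in the library title: 4 libraries of early-cycle hours (21, 22, 29 and 30 h) and 4 of mid-cycle hours (25, 26, 33 and 34 h), which makes 8 of the 26 libraries of the series. Early and mid are places within the title windows of 21 to 28 h and 29 to 36 h. They do not name the start or middle of a larval stage or of a molt. All 8 hold total RNA from whole worms of the wild-type strain N2, depleted of ribosomal RNA. Eggs hatched overnight, and the larvae then fed on OP50 bacteria on plates of NGM agar. Per the labels the early-cycle worms were harvested at 22, 23, 30 and 31 h and the mid-cycle worms at 26, 27, 34 and 35 h, because this course grew slowly and the titles lie nearer to developmental time. Each hour was sampled once, from one course, and nothing in the labels marks separate cultures. The p-values therefore measure the spread between neighbouring hours and the change of the phase difference between the 2 cycles. Neither is the spread between cultures.

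Nematode larvae replace their cuticle at each molt. Before a molt the epidermis secretes a transient matrix, the precuticle, that shapes the new surface. Cuticle collagens then follow in waves, with the collagens of the annular furrows before most others, and proteases finally free the old cuticle. Many genes rise and fall once per larval stage around this program, under nuclear receptors such as NHR-23 and other transcription factors, so that samples taken at opposite points of a stage hold different sets of transcripts.

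Library totals ran from 18310906 to 28448477 counts in early-cycle libraries and from 17513783 to 20552578 in mid-cycle libraries. Neighbouring hours correlated at 0.974 to 0.979 (Pearson, log2(CPM + 1), across genes), the same phase of the other cycle at 0.832 to 0.9505, and the other phase of the same cycle at 0.847 to 0.937. Markers of intestine, body wall muscle and neurons were present in all 8 libraries. Values are CPM, counts scaled to a fixed library total with TMM factors. A count of 0 allows up to 3 counts, which is 0.113 to 0.177 CPM per library, for counting error only. A log2 difference is that of early-cycle over mid-cycle hours from one fit over the 8 libraries with the cycle (21 to 28 h or 29 to 36 h) as a block, with its standard error, so that a positive value means higher in early-cycle hours. A gene was called at a Benjamini-Hochberg adjusted p under 0.05 and an absolute log2 difference of at least 1. A gene counted often enough in one phase only to be tested had to differ, so counts over a list describe the members that passed. CPM compares libraries for a gene and takes no account of gene length, so levels are not compared between genes. Whole worms were sampled, in which fewer cells of a type and less RNA per cell cannot be told apart.

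Of 15184 genes tested, 746 (4.91%) were higher in early-cycle hours and 1883 (12.4%) were lower. The 4.91% and 12.4% are the background for the counts of each list below. The median log2 difference was 1.94 over the genes called higher, -2.31 over those called lower and -0.036 over all tested genes. Every one of the 746 had the same sign in both cycles, as did 1840 of the 1883. In 597 of the 746 and 848 of the 1883 the 4 libraries of one phase all lay beyond the 4 of the other. Over all tested genes, groups that did not overlap made up 8.39% (early-cycle hours higher) and 9.05% (early-cycle hours lower). The first cycle alone, with 2 libraries against 2, gave 122 genes higher and 267 lower, and the last cycle alone gave 632 and 1634.

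**Figure D1:**
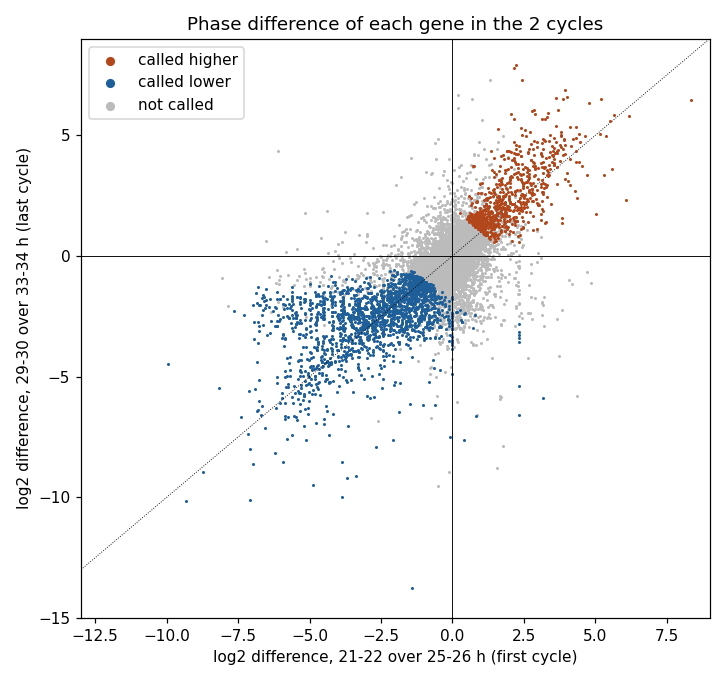
Each point is 1 of the 15184 tested genes, with its log2 difference of early-cycle over mid-cycle hours in the first cycle (horizontal, 21-22 over 25-26 h) and in the last (vertical, 29-30 over 33-34 h). Genes called higher lie to the upper right. Most genes called lower lie to the lower left, where one group follows the dotted line of equal differences and another stays near the same last-cycle value over a wide range of first-cycle values.

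The mid-cycle hours also lie 4 h later than the early-cycle hours of the same cycle, so a gene that goes up steadily over the course has a negative log2 difference in this fit. With a straight line of time in place of the cycle block, 600 genes (3.95%) were higher and 824 (5.43%) lower. Of the 746 genes called higher, 461 were called higher there too, and none of the other 285 changed sign. Of the 1883 called lower, 758 were lower with linear time as well, 62 were called higher and 1063 were not called, 629 of these with the opposite sign. Genes that were nearly silent early on made up most of this loss. The first-cycle mean was under 0.5 CPM for 730 of the 1883, a threshold chosen after the values were seen, and 12 of these 730 were lower with linear time, against 746 of the other 1153. Counts with linear time are therefore given beside those with the block. Whether the phase difference changed between the cycles was tested by the phase by cycle term, which called 1 gene (0.00659%), F10B5.3. The difference in level between the cycles was taken up by the block and was not tested. Its log2 difference was -6.10 in the first cycle and 4.36 in the last. An unadjusted p under 0.05 was reached by 1255 genes, DESeq2 called 214 and limma 14.

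**Figure D2:**
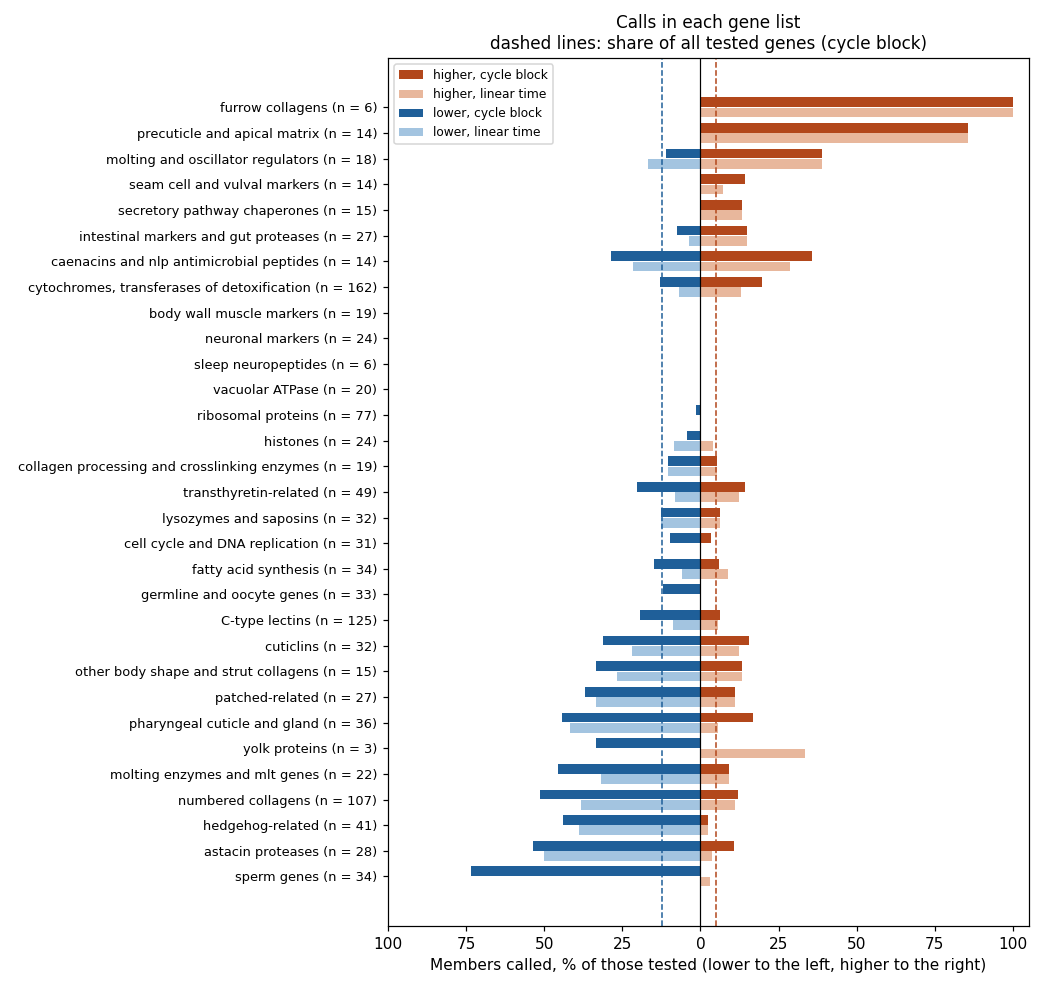
Bars give the share of tested members of each gene list called higher (right) or lower (left) in early-cycle hours, dark with the cycle block and pale with linear time in its place. The furrow collagens (6 of 6 higher) and the precuticle list (12 of 14 higher) stand at the top and the sperm genes (25 of 34 lower) at the bottom, and the pale bar of the sperm genes has no lower call.

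Among 18 molting and oscillator regulators 7 were higher and 2 lower in early-cycle hours (7 higher and 3 lower with linear time), with a median log2 difference of 0.81. These shares were 38.9% and 11.1%, against 4.91% and 12.4% of all tested genes, so the share lower was near the background. peb-1, which encodes a DNA-binding protein needed for molting, had 61.8, 91.5, 70.03 and 79.03 CPM at 21, 22, 29 and 30 h, against 3.07, 4.61, 5.60 and 1.56 CPM at 25, 26, 33 and 34 h. Its log2 difference was 4.34 ± 0.38 (adjusted p = 0.000386). All 4 early-cycle values of peb-1 lay more than 10-fold above the highest mid-cycle value. nhr-23, the nuclear receptor that drives molting genes, had 56.6, 79.9, 58.1 and 71.1 CPM at 21, 22, 29 and 30 h, against 10.97, 13.7, 25.1 and 30.3 CPM at 25, 26, 33 and 34 h (1.84 ± 0.28, adjusted p = 0.00307). The early-cycle hours stood apart in both cycles, with a log2 difference of 2.47 in the first and 1.22 in the last. myrf-1, which encodes a membrane-bound transcription factor needed for molting, had 129, 169, 117 and 122 CPM at 21, 22, 29 and 30 h, against 35.99, 37.1, 33.9 and 16.6 CPM at 25, 26, 33 and 34 h (2.13 ± 0.22, adjusted p = 0.000524). pan-1, whose product binds the MYRF proteins at the membrane, averaged 297 ± 30.7 CPM in early-cycle libraries and 111.8 ± 35.3 CPM in mid-cycle libraries (SD, n = 4 each; 1.404 ± 0.23). The receptor gene nhr-91 (3.04 ± 0.39), the zinc finger gene ztf-6 (1.77 ± 0.18) and the epidermal GATA factor gene elt-3 (1.38 ± 0.24) were the other 3 called higher. The groups did not overlap for any of the 7.

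Lower in early-cycle hours were bed-3, whose zinc finger protein acts in molting and vulval development, and the receptor gene nhr-41. bed-3 had 9.01, 16.8, 4.76 and 7.98 CPM at 21, 22, 29 and 30 h, against 130.04, 46.3, 152 and 68.2 CPM at 25, 26, 33 and 34 h, a log2 difference of -3.44 ± 0.53 (adjusted p = 0.00403). nhr-41 had a log2 difference of -1.24 ± 0.25 and dropped under the minimum fold without the library of 25 h (-0.99), which left 1 regulator lower. The epidermal receptor gene nhr-25 did not pass with the block (-0.80 ± 0.30, adjusted p = 0.0851) and was lower with linear time (-1.79, adjusted p = 0.00511). Among the regulators that were not called, grh-1, the grainyhead gene of epidermal barriers, had 26.3, 79.5, 33.2 and 61.6 CPM at 21, 22, 29 and 30 h, against 46.4, 24.12, 31.1 and 15.2 CPM at 25, 26, 33 and 34 h, and 144 and 106 CPM at 23 and 24 h. lin-42, the Period relative that times molts, had 24.16, 76.95, 25.7 and 47.5 CPM at 21, 22, 29 and 30 h, against 25.5, 11.3, 24.16 and 12.1 CPM at 25, 26, 33 and 34 h, and 82.999 CPM at 23 h. In both genes and both cycles the second hour was above the first among early-cycle libraries and below it among mid-cycle libraries, and the groups overlapped (log2 differences 0.81 ± 0.43 and 1.23 ± 0.46, adjusted p = 0.206 and 0.0875). blmp-1, a repressor gene of the same network, passed the p but not the fold (0.82 ± 0.20). nhr-85, nhr-6, nhr-67, myrf-2 and elt-1 had log2 differences from -0.16 to 0.58 and were not called.

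The precuticle and the furrow collagens were the groups most uniformly higher in early-cycle hours. Of 14 precuticle and apical matrix genes 12 were higher and 0 lower, also with linear time, with DESeq2 and with limma, and the median log2 difference was 3.69. At an unadjusted p under 0.05 the count was 12 as well. fbn-1, which encodes a fibrillin-like precuticle protein, had 1344, 1459, 1844 and 1054 CPM at 21, 22, 29 and 30 h, against 38.3, 38.1, 19.9 and 11.7 CPM at 25, 26, 33 and 34 h. With 5.85 ± 0.39 (adjusted p = 0.000117) it had the largest log2 difference among the genes with a symbol, a mean of at least 10 CPM and separate groups. wrt-10, a hedgehog-related gene on the same list, had 442, 1269, 648 and 1134 CPM at 21, 22, 29 and 30 h, against 61.01, 24.3, 43.5 and 15.7 CPM at 25, 26, 33 and 34 h (4.62 ± 0.57). Other members, named after their values were seen, were noah-1 and noah-2, which encode zona pellucida domain proteins of the precuticle (3.11 ± 0.64 and 3.33 ± 0.61), the lipocalin gene lpr-3 (4.01 ± 0.61) and let-653, which encodes a matrix protein of epithelial tubes (4.21 ± 0.40). sym-1, lpr-1, lpr-4, lpr-5 and lpr-6 lay between 3.43 and 4.28, and egg-6 at 1.14. dex-1 (-0.22 ± 0.14) and ifo-1 (0.0067 ± 0.30) were the 2 that were not called.

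These genes did not all have their highest value at the same hour. fbn-1 had 1344, 1459, 585 and 116 CPM at 21, 22, 23 and 24 h. noah-1 had 694 CPM at 21 h, 1836 CPM at 22 h and its first-cycle maximum of 2635 CPM at 23 h. In the last cycle fbn-1 was highest at 29 h and noah-1 at 30 h.

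All 6 annular furrow collagens were higher in early-cycle hours, with both designs, and the median log2 difference was 4.17. Furrow collagens form the circumferential grooves of the cuticle, and worms that lack one of them are short and fat. dpy-10 had 80.7, 275, 118 and 196 CPM at 21, 22, 29 and 30 h, against 14.6, 5.34, 10.1 and 2.95 CPM at 25, 26, 33 and 34 h (4.37 ± 0.61, adjusted p = 0.00283). dpy-3 had 61.4, 301, 114 and 210.3 CPM at 21, 22, 29 and 30 h, against 18.5, 5.53, 9.45 and 1.72 CPM at 25, 26, 33 and 34 h (4.38 ± 0.79, adjusted p = 0.00738). In both genes the second early-cycle hour of each cycle was above the first, and no early-cycle value reached down to a mid-cycle value. dpy-2, dpy-7, dpy-8 and dpy-9 had log2 differences from 3.66 to 4.18. Without the library of 22 h the count was 5 of 6 here and 11 of 14 for the precuticle.

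**Figure D3:**
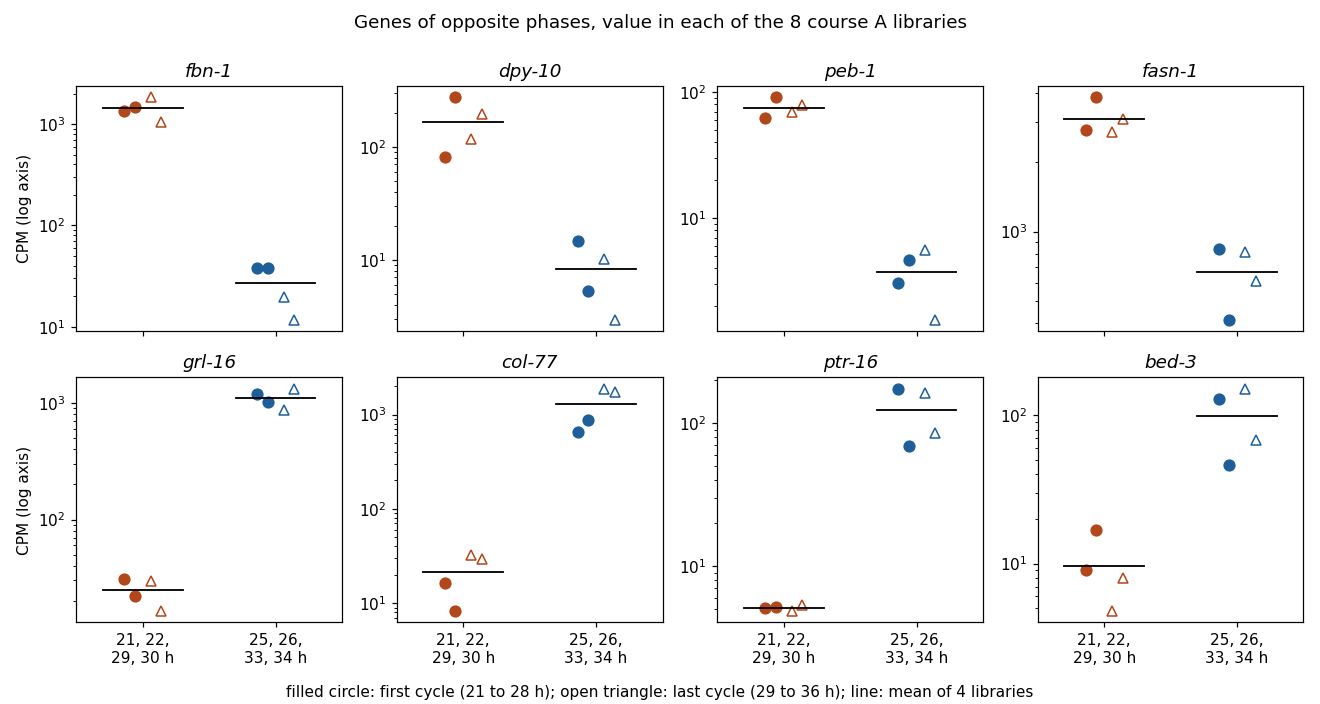
Each panel gives the CPM of 1 gene on a log axis in the 4 early-cycle libraries (left) and the 4 mid-cycle libraries (right), with filled circles for the first cycle, open triangles for the last and a line at the mean. In the upper row (fbn-1, dpy-10, peb-1, fasn-1) the early-cycle values lie above all mid-cycle values, and in the lower row (grl-16, col-77, ptr-16, bed-3) they lie below.

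Across all genes the largest early-cycle values relative to mid-cycle came from further cuticle genes and from genes of other kinds. The collagen gene col-149 had 525, 1182, 1219 and 1255 CPM at 21, 22, 29 and 30 h, against 21.005, 13.2, 29.5 and 13.3 CPM at 25, 26, 33 and 34 h (5.75 ± 0.40, adjusted p = 0.000135). dpy-6, which encodes a mucin-like protein of the cuticle, had 587, 524, 687 and 357 CPM at 21, 22, 29 and 30 h, against 13.9, 25.9, 8.43 and 4.35 CPM at 25, 26, 33 and 34 h (5.56 ± 0.50, adjusted p = 0.000477). cdh-7, a cadherin family gene, had 286, 459, 451 and 406 CPM at 21, 22, 29 and 30 h, against 18.8, 10.8, 19.8 and 7.41 CPM at 25, 26, 33 and 34 h (4.81 ± 0.38). Every early-cycle value of these 3 genes was at least 10-fold above every mid-cycle value of the same gene. ugt-57, a glucuronosyltransferase gene, averaged 102 ± 20.02 CPM in early-cycle libraries and 3.96 ± 2.22 CPM in mid-cycle libraries (SD, n = 4 each; 4.74 ± 0.42). The collagen genes col-98, col-42 and col-103 completed the first 8, at 5.28 ± 0.87, 5.15 ± 0.94 and 4.87 ± 0.95. Their early-cycle values were uneven, since col-98 had 206, 179, 717 and 194 CPM at 21, 22, 29 and 30 h, against 4.84, 18.7, 6.92 and 2.52 CPM at 25, 26, 33 and 34 h. The library of 29 h thus held more than 3 times as much col-98 as any other.

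Other cuticle collagens were more often called lower than higher. Of 156 numbered collagens, 107 passed the filter on low counts, and of these 55 were lower and 13 higher in early-cycle hours, with a median log2 difference of -3.0006. These shares were 51.4% and 12.1%, beside 12.4% lower and 4.91% higher over all tested genes. With linear time 41 were lower and 12 higher. col-77 had 16.2, 8.20, 32.7 and 29.1 CPM at 21, 22, 29 and 30 h, against 646, 884, 1883 and 1751 CPM at 25, 26, 33 and 34 h (-5.92 ± 0.26, adjusted p = 2.04e-05). Its mid-cycle values exceeded its early-cycle values about as far in the first cycle (-5.97) as in the last (-5.88). col-158, at low level, was among the 13 that were higher, with 12.47, 7.53, 20.2 and 4.76 CPM at 21, 22, 29 and 30 h, against 0.236, 0.194, 0.390 and 0.107 CPM at 25, 26, 33 and 34 h (5.55 ± 0.60). The 13 and the 55 belong to one family of similar genes, whose members can share reads.

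Several of the lowest collagens were low in the first cycle and high by 33 h. col-106 had 0.0433, 0.0558, 0.151 and 0.198 CPM at 21, 22, 29 and 30 h, against 0.649, 0.922, 114 and 245 CPM at 25, 26, 33 and 34 h (-9.44 ± 0.83, with 10 counts in all early-cycle libraries together). col-60 had 0.0433, 0.112, 0.869 and 1.34 CPM at 21, 22, 29 and 30 h, against 1.53, 3.06, 501 and 1071 CPM at 25, 26, 33 and 34 h (-9.14 ± 0.80), and col-120 had 0.216, 0.0558, 0.982 and 1.34 CPM at 21, 22, 29 and 30 h, against 1.71, 1.41, 441 and 848 CPM at 25, 26, 33 and 34 h (-8.46 ± 1.06). In these 3 the values of 33 and 34 h were more than 10-fold above those of 25 and 26 h, and all 3 were still called lower with linear time. col-88 had 0.260, 0.0558, 0 and 0.0495 CPM at 21, 22, 29 and 30 h, against 0.649, 0.291, 179 and 596 CPM at 25, 26, 33 and 34 h. It was called with the block (-10.43 ± 2.13, adjusted p = 0.0119) and lost the call without the library of 29 h or of 30 h (adjusted p = 0.0699 and 0.0766). Without 25, 33 or 34 h col-88 was below the filter on low counts, and with linear time it was not called (adjusted p = 0.103). col-20 had a log2 difference of -6.67 ± 1.13 and was not called with linear time either (adjusted p = 0.0779). The other 2 of the 8 lowest were zmp-6, a matrix metalloprotease gene at -6.19 ± 0.48, and pqn-63 at -5.83 ± 0.53, both called with linear time too.

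Of 15 body shape and strut collagens outside the furrows 5 were lower and 2 higher (4 and 2 with linear time). These shares were 33.3% and 13.3%, beside 12.4% lower and 4.91% higher over all tested genes. dpy-4 had 82.2, 245, 109.8 and 197 CPM at 21, 22, 29 and 30 h, against 2154, 1711, 1839 and 1046 CPM at 25, 26, 33 and 34 h (-3.40 ± 0.40, adjusted p = 0.00120). dpy-5 and dpy-13, named after their values were seen, had log2 differences of -3.36 ± 0.42 and -3.38 ± 0.36, so that these 3 dumpy collagens were lower while the 6 furrow collagens were higher. rol-1 had 0.0433, 0.112, 8.95 and 59.9 CPM at 21, 22, 29 and 30 h, against 3.13, 1.60, 1577 and 1662 CPM at 25, 26, 33 and 34 h. Its groups overlapped, and the call (-5.48 ± 0.74) was lost with linear time (adjusted p = 0.243). dpy-17 was higher at 1.99 ± 0.48, and lost the call without the library of 33 h (adjusted p = 0.0532). The count of 2 higher was 1 without the library of 21, 22, 26 or 29 h and 0 without that of 33 h. The adult strut collagen genes bli-1 and bli-2 were not called, with log2 differences of 0.39 ± 0.92 and 0.081 ± 1.07, but bli-1 was called higher with linear time (4.78, adjusted p = 0.0230).

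Enzymes that process collagens were mostly not called, with 1 of 19 higher and 2 lower (the same counts with linear time) and a median log2 difference of -0.12. These shares, 5.26% and 10.5%, were near the 4.91% and 12.4% of all tested genes. dpy-31, the astacin protease that trims procollagen, had 68.2, 104, 92.7 and 126 CPM at 21, 22, 29 and 30 h, against 39.5, 47.9, 36.4 and 28.99 CPM at 25, 26, 33 and 34 h (1.36 ± 0.22, adjusted p = 0.00403). bli-5, which encodes a protein with a Kunitz protease inhibitor domain, had 1.26, 1.84, 1.74 and 3.86 CPM at 21, 22, 29 and 30 h, against 24.07, 19.4, 15.6 and 25.5 CPM at 25, 26, 33 and 34 h (-3.33 ± 0.36). The peroxidase gene skpo-2 was lower too, at -3.03 ± 0.49. The prolyl hydroxylase subunit gene dpy-18 (-0.14 ± 0.21) and the dual oxidase gene bli-3 (-0.36 ± 0.12), which act in hydroxylation and crosslinking of collagen, were not called.

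Of 28 astacin metalloproteases 15 were lower and 3 higher, and with linear time 14 were lower and 1 higher. nas-23 had 4.07, 1.17, 2.49 and 3.72 CPM at 21, 22, 29 and 30 h, against 96.5, 122, 51.2 and 111 CPM at 25, 26, 33 and 34 h (-5.03 ± 0.46, adjusted p = 0.000506), and nas-7 had 15.02, 3.57, 3.10 and 3.52 CPM at 21, 22, 29 and 30 h, against 140.4, 232, 91.9 and 154 CPM at 25, 26, 33 and 34 h (-4.75 ± 0.51). No early-cycle value of these 2 genes came near a mid-cycle value, and nas-7 at 21 h was the highest of its early-cycle group. The higher calls were less firm. nas-9 (2.93 ± 0.75) and nas-3 (2.17 ± 0.57) had overlapping groups and were not called with linear time (adjusted p = 0.106 and 0.135). Leaving out 21, 33 or 34 h gave nas-9 an adjusted p of 0.0607, 0.0816 or 0.0813. That of nas-3 was 0.0602, 0.0554, 0.0926 or 0.0584 without 21, 22, 29 or 34 h. The count of 3 higher was 1 without the library of 34 h and 5 without that of 26 h.

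Of 22 molting enzymes and mlt genes 10 were lower and 2 higher (7 and 2 with linear time). The 2 that were higher were zmp-2, a matrix metalloprotease gene, with 55.1, 104, 65.8 and 78.04 CPM at 21, 22, 29 and 30 h, against 9.74, 12.4, 3.94 and 1.29 CPM at 25, 26, 33 and 34 h (3.76 ± 0.54), and mlt-11, which encodes a Kunitz-type protease inhibitor, with 399, 1376, 648 and 1225 CPM at 21, 22, 29 and 30 h, against 189, 49.9, 119 and 31.3 CPM at 25, 26, 33 and 34 h (3.27 ± 0.68). The groups of both genes were separate. nas-6 was lower, at -3.84 ± 0.46. mlt-10, named after its values were seen, had 9.01, 35.3, 13.3 and 51.3 CPM at 21, 22, 29 and 30 h, against 282, 61.3, 332 and 99.6 CPM at 25, 26, 33 and 34 h and 478 CPM at 24 h. It was lower with the block (-2.85 ± 0.75, adjusted p = 0.0299) and not called with linear time (adjusted p = 0.0729), and its value at 30 h came close to that at 26 h. The astacin gene nas-37, which helps open the old cuticle, was highest between the phases and not called (1.12 ± 0.74).

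Cuticlins, zona pellucida domain proteins of the cuticle, went both ways, with 10 of 32 lower and 5 higher (7 and 4 with linear time). cutl-5 had 0.433, 0.223, 0.453 and 0.396 CPM at 21, 22, 29 and 30 h, against 18.3, 21.4, 10.2 and 17.4 CPM at 25, 26, 33 and 34 h (-5.41 ± 0.34, adjusted p = 7.01e-05) and cutl-4 had a log2 difference of -4.35 ± 0.40 on 20 counts over the early-cycle libraries. cutl-6 had 7.23, 34.9, 11.9 and 42.4 CPM at 21, 22, 29 and 30 h, against 2.12, 2.48, 3.94 and 1.02 CPM at 25, 26, 33 and 34 h (3.31 ± 0.68) and cutl-25 3.85 ± 0.51 on 17 counts over the mid-cycle libraries. Members of this family were thus separated by phase in both directions.

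Hedgehog-related signals and the patched-related proteins that resemble their receptors held more genes lower than higher in early-cycle hours. Nematodes have many secreted proteins related to hedgehog, several of them made in epidermis and needed for molting. Of 41 such genes 18 were lower and 1 higher (16 and 1 with linear time), with a median log2 difference of -1.94. These shares were 43.9% and 2.44%, beside 12.4% lower and 4.91% higher over all tested genes. grl-16 had 30.8, 21.8, 29.6 and 16.3 CPM at 21, 22, 29 and 30 h, against 1191, 1029, 879 and 1334 CPM at 25, 26, 33 and 34 h (-5.50 ± 0.27, adjusted p = 2.49e-05). Its lowest mid-cycle value was more than 25-fold its highest early-cycle value. grl-27 had 0, 0, 0 and 0.0495 CPM at 21, 22, 29 and 30 h, against 4.43, 3.45, 6.43 and 56.3 CPM at 25, 26, 33 and 34 h. It held 1 count in all early-cycle libraries and 1326 in mid-cycle libraries, a mid-cycle to early-cycle ratio of 1516 with a 95% counting interval from 272 to 59912.5 (exact binomial). wrt-10, described with the precuticle genes, was the only one called higher, and leaving out 21, 22 or 26 h made the count higher 2. Of 27 patched-related genes 10 were lower and 3 higher (9 and 3 with linear time), which is 37.0% and 11.1%. ptr-16 had 5.11, 5.19, 4.83 and 5.35 CPM at 21, 22, 29 and 30 h, against 174, 69.2, 164 and 85.05 CPM at 25, 26, 33 and 34 h (-4.59 ± 0.35, adjusted p = 0.000205). The 4 early-cycle values had an SD of only 0.216 CPM, while the mid-cycle values were higher at the first hour of each pair. ptr-17 was lower at -3.69 ± 0.38. On the other side, ptr-10 had 99.1, 152, 95.3 and 138 CPM at 21, 22, 29 and 30 h, against 11.03, 6.21, 9.25 and 3.49 CPM at 25, 26, 33 and 34 h (4.03 ± 0.37). ptr-9 was also higher (2.35 ± 0.57), at low level, and after leaving out 22, 30 or 34 h its adjusted p was 0.0611, 0.0565 or 0.0650.

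The pharynx sheds a cuticle of its own, made in part of disordered and low-complexity proteins. Of 36 pharyngeal cuticle and gland genes 16 were lower and 6 higher in early-cycle hours, and with linear time 15 were lower and 2 higher. Another 34 genes of this list were below the filter on low counts. idpc-5 had 0.0866, 0.223, 0.113 and 0.248 CPM at 21, 22, 29 and 30 h, against 5.61, 28.1, 2.39 and 10.5 CPM at 25, 26, 33 and 34 h (-5.97 ± 0.86, adjusted p = 0.00271). idpc-6 held 1 count in the early-cycle libraries and 217 in the mid-cycle libraries, a mid-cycle to early-cycle ratio of 248 (95% counting interval 44.1 to 9842). All 7 idpc genes and all 6 abu genes tested were lower, while the fipr genes, which encode small peptides, held 4 of the 6 higher calls with the block and 0 with linear time. The phat genes were divided, with 3 lower and 2 higher under both designs. fipr-1 had 73.9, 21.6, 35.2 and 14.6 CPM at 21, 22, 29 and 30 h, against 1.48, 9.17, 0.731 and 0.215 CPM at 25, 26, 33 and 34 h (4.19 ± 0.89). It was not called with linear time (adjusted p = 0.0541), nor was fipr-2 (2.72 ± 0.68, with linear time adjusted p = 0.124). When 21, 29, 33 or 34 h was left out fipr-2 had an adjusted p of 0.0712, 0.0621, 0.0736 or 0.0736. The count of 6 higher was 3 without the library of 21, 29 or 34 h. Reads can be shared between closely similar abu or fipr genes.

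The genes for the first steps of fatty acid synthesis were higher in early-cycle hours. pod-2, the acetyl-CoA carboxylase gene, and fasn-1, the fatty acid synthase gene, were the 2 of 34 fatty acid genes called higher. Of the whole list 5.88% was higher and 14.7% lower, near the 4.91% and 12.4% of all tested genes. fasn-1 had 2762, 3838, 2696 and 3079.7 CPM at 21, 22, 29 and 30 h, against 842, 414, 812 and 609.8 CPM at 25, 26, 33 and 34 h (2.21 ± 0.25, adjusted p = 0.000866). pod-2 had 1169.95, 953, 1425 and 775 CPM at 21, 22, 29 and 30 h, against 427, 514, 289.6 and 278 CPM at 25, 26, 33 and 34 h (1.56 ± 0.24, adjusted p = 0.00322). Both had separate groups. The desaturase genes fat-5, fat-6 and fat-7, named after their values were seen, were not called (-0.94 ± 0.23, 0.063 ± 0.15 and 0.013 ± 0.17). Lower were 5 genes (2 with linear time), of which acdh-6 and acdh-8 encode acyl-CoA dehydrogenases, enzymes of fatty acid breakdown. acdh-6 had 2.29, 2.90, 1.74 and 6.24 CPM at 21, 22, 29 and 30 h, against 107, 35.4, 177 and 137 CPM at 25, 26, 33 and 34 h (-5.05 ± 0.53), while acdh-8 had overlapping groups (-2.46 ± 0.44) and the opposite sign with linear time (0.93, adjusted p = 0.200). Without the library of 29 or 33 h the count lower was 3.

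Among 27 intestinal markers and gut proteases 4 were higher and 2 lower (4 and 1 with linear time). These shares were 14.8% and 7.41%, beside 4.91% and 12.4% of all tested genes. cpr-9 and cpr-4, cathepsin B-like genes, were higher at 1.49 ± 0.23 and 1.77 ± 0.32. cpr-6, of the same family, had 65.3, 169, 141 and 275 CPM at 21, 22, 29 and 30 h, against 547, 256, 713 and 649 CPM at 25, 26, 33 and 34 h (-1.74 ± 0.38), with overlapping groups and no call with linear time (adjusted p = 0.0647). elt-7, a GATA factor gene of the intestine, had 6.75, 4.91, 4.42 and 3.86 CPM at 21, 22, 29 and 30 h, against 17.9, 21.1, 16.6 and 12.6 CPM at 25, 26, 33 and 34 h (-1.78 ± 0.19, adjusted p = 0.000654), while its partner elt-2 was not called (0.38 ± 0.17). Summed over the list the level was 13639.8 to 17928 CPM in early-cycle libraries and 11110.3 to 13534 CPM in mid-cycle libraries, so the early-cycle range lay above the mid-cycle range. The part of this level in the differences of single gut genes was not tested.

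Of 15 secretory pathway genes 2 were higher and 0 lower (2 and 0 also with linear time, with DESeq2 and with limma, and 5 of 15 at an unadjusted p under 0.05). The calreticulin gene crt-1 had 4069, 4288, 5690.1 and 3645 CPM at 21, 22, 29 and 30 h, against 2018, 2494, 2019.5 and 1684 CPM at 25, 26, 33 and 34 h (1.11 ± 0.19), and enpl-1, which encodes the endoplasmin chaperone, had 1549, 2038, 1884 and 1984 CPM at 21, 22, 29 and 30 h, against 895, 1001, 809 and 905 CPM at 25, 26, 33 and 34 h (1.05 ± 0.14). Both lie near the minimum fold. Without 29 h crt-1 was at 0.93, and without 22, 30 or 33 h enpl-1 was at 0.96, 1.00 or 0.98, so that in each case 1 gene of the 2 stayed called.

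Of 162 detoxification genes (cytochromes P450, glutathione transferases and glucuronosyltransferases) 32 were higher and 21 lower, and with linear time 21 and 11. The count lower was 12 without the library of 29 h. gst-41 had 16.8, 6.25, 10.3 and 5.004 CPM at 21, 22, 29 and 30 h, against 0.295, 1.84, 0.390 and 0.161 CPM at 25, 26, 33 and 34 h (3.97 ± 0.67). ugt-6 had 10.5, 20.5, 18.9 and 35.9 CPM at 21, 22, 29 and 30 h, against 116, 138, 176 and 194 CPM at 25, 26, 33 and 34 h (-2.90 ± 0.27), and cyp-37B1 was lower at -4.53 ± 0.79. Against a background of 4.91% and 12.4%, 19.8% of this list was higher and 12.96% lower. Of 49 transthyretin-related genes 7 were higher and 10 lower (6 and 4 with linear time). ttr-26 had 107, 249.5, 75.2 and 169.7 CPM at 21, 22, 29 and 30 h, against 14.9, 34.3, 10.8 and 6.01 CPM at 25, 26, 33 and 34 h (3.35 ± 0.50) and ttr-28 was higher at 3.49 ± 0.51. ttr-14 (-7.05 ± 1.76) and ttr-34 (-4.79 ± 1.00) had overlapping groups and were not called with linear time (adjusted p = 0.403 and 0.467), and ttr-14 had an adjusted p of 0.0607 without the library of 29 h. Without 30, 33 or 34 h both genes were below the filter on low counts. The count higher was 13 without 26 h, and the count lower was 5 without 33 h and 6 without 34 h.

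Of 125 C-type lectins 8 were higher and 24 lower (7 and 11 with linear time), against a background of 4.91% and 12.4%. The count lower was 14 without the library of 29 h and 15 without that of 34 h, and the count higher was 5 without 34 h. clec-7 had 15.98, 14.1, 18.7 and 17.6 CPM at 21, 22, 29 and 30 h, against 3.66, 5.73, 2.92 and 1.83 CPM at 25, 26, 33 and 34 h (2.29 ± 0.33), and clec-146 was higher at 3.56 ± 0.47. clec-229 had 0 counts in all 4 early-cycle libraries and 291 in the mid-cycle libraries, which makes it at least 111-fold lower in early-cycle hours when 3 counts over the group are allowed. clec-239 was lower (-5.49 ± 0.68) on 9 early-cycle counts. Of 14 caenacins and antimicrobial nlp peptides 5 were higher and 4 lower (4 and 3 with linear time). nlp-26 had 29.6, 16.8, 36.7 and 7.18 CPM at 21, 22, 29 and 30 h, against 1.36, 5.73, 0.731 and 0.483 CPM at 25, 26, 33 and 34 h (3.78 ± 0.83) and nlp-34 had 3.42, 2.17, 1.28 and 2.03 CPM at 21, 22, 29 and 30 h, against 11.2, 18.1, 7.31 and 13.2 CPM at 25, 26, 33 and 34 h (-2.50 ± 0.32). nlp-28 was higher at 3.32 ± 0.68 and nlp-25 lower at -2.83 ± 0.60, although over all 16 hours their maxima lay 1 h apart, at 28 and 36 h for nlp-28 and at 27 and 35 h for nlp-25. nlp-25 had an adjusted p of 0.0507 without 29 h, where the count lower was 2. Of 32 lysozymes and saposins 2 were higher, spp-23 (1.89 ± 0.36) and spp-24 (2.05 ± 0.32), and 4 were lower, against 4.91% higher and 12.4% lower over all tested genes, so both shares were near the background. Among the lower were the saposin gene spp-7 and the lysozyme gene lys-3 (-2.19 ± 0.40). The counts were the same with linear time. spp-7 averaged 3.33 ± 1.24 CPM in early-cycle libraries and 26.7 ± 8.71 CPM in mid-cycle libraries (SD, n = 4 each). Without 34 h the count lower was 2.

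Several lists outside the cuticle had no call. The counts were 0 of 19 body wall muscle genes, 0 of 24 neuronal genes, 0 of 6 neuropeptides that act in molting sleep and 0 of 20 subunits of the vacuolar ATPase, with edgeR, with DESeq2, with limma and with linear time. An unadjusted p under 0.05 was reached by 6, 12, 0 and 9 of them. Their median log2 differences were 0.31, 0.34, -0.018 and 0.25, beside -0.036 over all tested genes. Without the library of 22 or 26 h 1 ATPase subunit was called higher. Of 77 ribosomal protein genes 0 were higher and 1 lower, with a median of 0.38 and 29 at an unadjusted p under 0.05. DESeq2 called 0 and 1, limma 0 and 0, and linear time gave 0 and 0. The one called, rpl-42, was at low level and had 0.0433, 0, 0.529 and 1.59 CPM at 21, 22, 29 and 30 h, against 0, 0.146, 5.70 and 8.86 CPM at 25, 26, 33 and 34 h, with the opposite sign with linear time (0.36, adjusted p = 0.709), and its call was lost without the library of 29 h (adjusted p = 0.0795). Without 30, 33 or 34 h it was below the filter on low counts. Summed neuronal marker levels were 913 to 1291 CPM in early-cycle libraries and 653 to 1073 CPM in mid-cycle libraries, and muscle marker levels 16356 to 23588 CPM in early-cycle libraries and 14034 to 17547 CPM in mid-cycle libraries, so that the ranges overlapped. Of 14 seam cell and vulval markers elt-6, a GATA factor gene of the seam cells, was higher (1.94 ± 0.34), as was nhr-73 (3.57 ± 1.00), and 0 were lower. The share higher was 14.3%, beside 4.91% of all tested genes. With linear time 1 was higher and 0 lower, and nhr-73 was not called (adjusted p = 0.164). nhr-73 rested on 7.30 CPM at 22 h, and without the library of 25, 26 or 34 h its adjusted p was 0.0811, 0.0830 or 0.0889. Without 21, 22 or 30 h it was below the filter on low counts. The list had 1 higher without 21, 22, 25, 26 or 34 h.

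Sperm genes were lower in early-cycle hours with the cycle block and not with linear time. In hermaphrodites sperm genes are known to switch on late in larval growth, before oocyte and yolk genes. Of 34 sperm genes tested (37 others were below the filter) 25 were lower and 0 higher with edgeR, against 0 lower and 1 higher with linear time. DESeq2 called 27 lower and 0 higher, and limma 15 and 0. An unadjusted p under 0.05 was reached by 29. ssp-31 had 0, 0, 0.718 and 1.73 CPM at 21, 22, 29 and 30 h, against 0.0590, 0.0971, 8.62 and 17.6 CPM at 25, 26, 33 and 34 h. Taken in order of time these 8 values did not fall at any step after 22 h, the early-cycle value of 30 h lay above the mid-cycle values of 25 and 26 h, and the sign with linear time was positive (0.22, adjusted p = 0.661), against -3.44 ± 0.53 with the block. msp-50, one of the near-identical major sperm protein genes, behaved likewise (-3.43 ± 0.67 with the block and 0.86 with linear time, adjusted p = 0.410). Without 30, 33 or 34 h msp-50 was below the filter on low counts. Summed sperm levels were 57.2 to 408 CPM in early-cycle libraries and 67.3 to 1561 CPM in mid-cycle libraries, and yolk levels 1.45 to 93.4 CPM in early-cycle libraries and 2.24 to 1028 CPM in mid-cycle libraries. Of 3 yolk genes 0 were higher and 1 lower with the block, and 1 higher and 0 lower with linear time. The yolk gene vit-2 had 0.0433, 0.0558, 11.4 and 14.1 CPM at 21, 22, 29 and 30 h, against 0, 0.243, 24.3 and 174 CPM at 25, 26, 33 and 34 h. It was called lower with the block (-2.84 ± 0.82, adjusted p = 0.0409), had the opposite sign with linear time (2.102, adjusted p = 0.0659), and lost the call without the library of 21, 22, 26, 29, 30 or 34 h (adjusted p up to 0.209).

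Of 33 germline and oocyte genes 4 were lower and 0 higher (0 and 0 with linear time, 4 and 0 with DESeq2, 3 and 0 with limma, 23 at an unadjusted p under 0.05). The share lower was 12.1%, near the 12.4% of all tested genes. puf-5, which encodes a Pumilio-family repressor in oocytes, had 1.47, 1.23, 1.85 and 3.22 CPM at 21, 22, 29 and 30 h, against 2.48, 3.30, 13.4 and 19.3 CPM at 25, 26, 33 and 34 h (-1.94 ± 0.40, with linear time adjusted p = 0.174). lab-1, a meiotic gene, was at -1.47 ± 0.46 (adjusted p = 0.0475) and not called with linear time (adjusted p = 0.980) or without 21, 29, 30, 33 or 34 h (up to adjusted p = 0.188). Without 34 h the list had 2 lower and 1 higher. Of 31 cell cycle and replication genes 1 was higher and 3 were lower (0 and 0 with linear time), among them the cyclin B genes cyb-2.2 (-1.40 ± 0.24) and cyb-2.1 (-1.18 ± 0.31). Both shares of this list, 3.23% and 9.68%, were below the 4.91% and 12.4% of all tested genes. cyd-1, the cyclin D gene, was higher (2.00 ± 0.62). None of these 3 was called with linear time (adjusted p = 0.216, 0.639 and 0.345). cyd-1 lost its call without any one of 22, 26, 29, 30, 33 and 34 h and cyb-2.1 without any one of 22, 29, 30, 33 and 34 h (adjusted p up to 0.132 and 0.0844), and the list had 1 lower without 29 or 34 h. Of 24 histone genes 0 were higher and 1 (4.17%) lower, against 12.4% lower over all tested genes (1 and 2 with linear time). The one lower, his-70, is a histone H3 gene with 0, 0, 5.63 and 7.53 CPM at 21, 22, 29 and 30 h, against 0.177, 0.194, 15.9 and 13.6 CPM at 25, 26, 33 and 34 h (-1.46 ± 0.44, adjusted p = 0.0426). With linear time it was called in the opposite direction (1.92, adjusted p = 0.0458), and without 25, 26, 29, 33 or 34 h it lost the call (adjusted p up to 0.110).

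**Figure D4:**
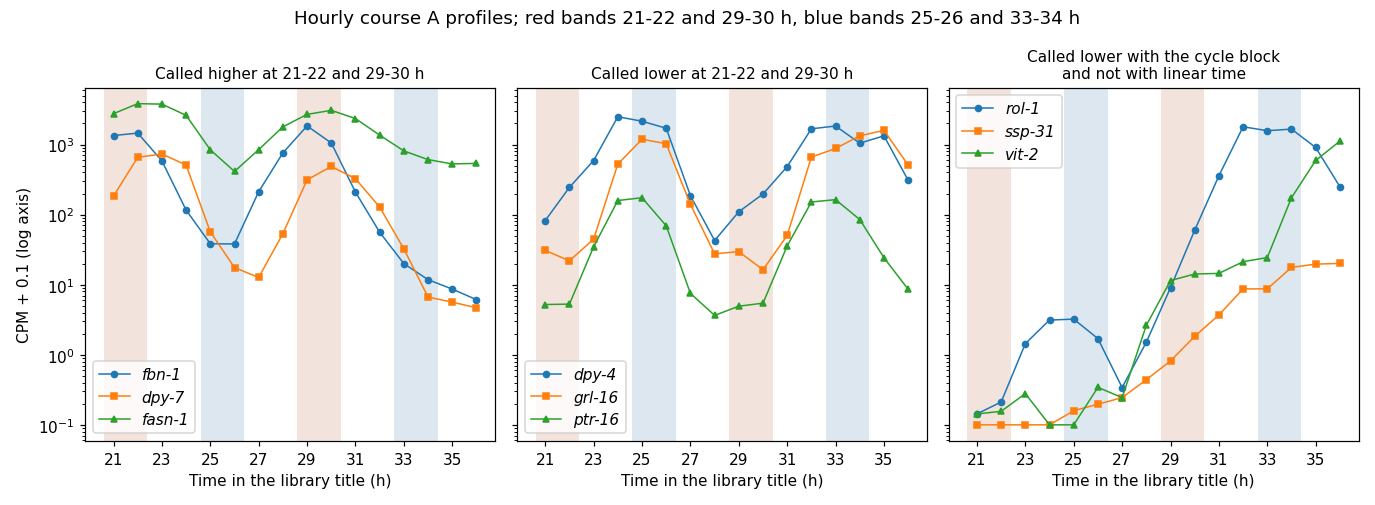
CPM plus 0.1 on a log axis against title time over all 16 hourly libraries of course A, with early-cycle hours in red bands and mid-cycle hours in blue. Genes called higher (left: fbn-1, dpy-7, fasn-1) are high in the red bands of both cycles, and genes called lower (middle: dpy-4, grl-16, ptr-16) in the blue bands. On the right are rol-1, ssp-31 and vit-2, called lower with the cycle block and not with linear time. All 3 are higher in the last cycle than in the first, but rol-1 falls from 1796 CPM at 32 h to 250 CPM at 36 h.

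The other 8 hours of course A show where the genes stood between the 2 phases. Of the 746 genes called higher, 254 had their first-cycle maximum at 21 h, 192 at 22 h, 113 at 23 h and 135 at 28 h. In the last cycle 399 were highest at 29 h and 229 at 30 h. Of the 1883 called lower, 370 and 502 had their first-cycle maximum at 25 and 26 h, 161 at 24 h and 729 at 28 h, the end of that cycle. In the last cycle 410 and 517 were highest at 33 and 34 h, 524 at 35 h and 317 at 36 h. These counts use libraries that also made the calls, apart from the hours between, and are a description.

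Course B gave libraries that the comparison had not used. There N2 larvae fed on NA22 bacteria, on NGM plates rich in peptone, and a library was made every 2 h. By the rank correlation across tested genes, its libraries of 24 and 32 h were most like 22 and 30 h of course A (Spearman rho 0.985 and 0.971), and those of 28 and 36 h most like 25 and 34 h (0.978 and 0.967). The libraries of 24 and 32 h were therefore set against those of 28 and 36 h. These hours were chosen with earlier results of these data known. The rank correlation also included the called genes, so part of the agreement in sign was built in. The shares below are therefore a description. Of the 2629 genes called in course A, 2609 (99.2%) had the same sign in course B, beside 9305 of the 12555 genes not called (74.1%). Differences here are of mean log2(CPM + 1), with no test. The median over the 746 higher genes was 1.63 in course B and 1.51 in course A, and over the 1883 lower genes -1.16 and -1.33. fbn-1 differed by 6.35 in course B, peb-1 by 4.38, dpy-10 by 4.44 and fasn-1 by 2.45. On the other side, grl-16 differed by -6.80, col-77 by -6.83, ptr-16 by -5.05 and bed-3 by -3.35. The later libraries of course B also lie 4 h after the earlier ones, so genes that go up during growth keep their sign there too: 25 of the 25 sperm genes did. With the same title hours as in course A (22 and 30 against 26 and 34 h), 1847 of the 2629 genes (70.3%) had the same sign, 442 of the 746 higher and 1405 of the 1883 lower.

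**Figure D5:**
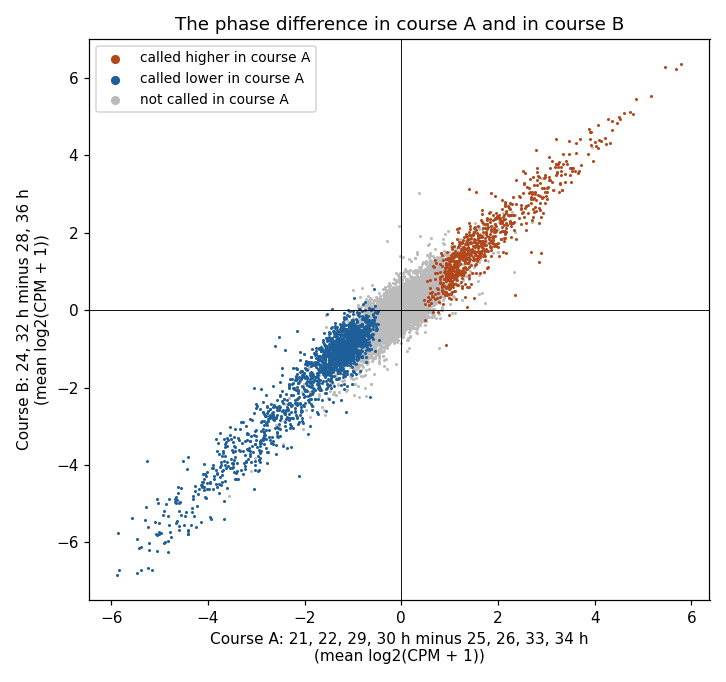
Each point is 1 of the 15184 tested genes, with its difference in mean log2(CPM + 1) in course A (horizontal, early-cycle minus mid-cycle hours) and in course B (vertical, 24 and 32 h minus 28 and 36 h). Of the 2629 genes called in course A, 2609 have the same sign in course B and lie to the upper right or the lower left.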

How the data were processed

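Of the deposited tables, one holds raw counts per gene and library for 20182 genes under WormBase identifiers, and the other log2 values, which the deposited numbers match as log2 of a library's counts, divided by its total relative to the course's mean total, plus 8 (largest difference 5.00e-05). Not given in the sources used here are the aligner, the counter, its use of strand and of reads with several matches, the build and the annotation. Reads of near-identical, overlapping or antisense genes can therefore enter a count, and no coordinates are given. Names were joined by identifier for 18778 genes. Per the labels' protocols, RNA came from a Tri-Reagent extraction and went into ScriptSeq v2 libraries.

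The deposited counts were fitted with edgeR 4.0.16 in R 4.3.3 (quasi-likelihood F test, robust dispersion, TMM factors) over the 8 libraries, with terms for phase and cycle, for genes that reach 10 counts, scaled to the library of median size, in 3 or more libraries. P-values were adjusted over all 15184 genes tested. The standard error is the log2 difference over the root of F. The procedure was also run on simulated counts drawn independently, with no cycle difference and no trend over time. That run therefore says nothing of how the fit handles the trend in the real libraries. The phase by cycle term was fitted in the same way. Alternatives were DESeq2 1.42.0, limma 3.58.1 on the deposited log2 values, other scalings, no filter, other blocks, linear time, all 16 course A libraries, other fold minimums, each library left out and each cycle alone. The rule for named genes took all regulators, the 8 highest and 8 lowest called genes with a symbol, at least 10 CPM on average and separate groups, and from each of the other lists up to 2 called genes per direction with at least 1 CPM. For the phase by cycle term it asked for called genes with a symbol and at least 10 CPM, and found none. The text also names genes outside the rule, picked with their values in view: dex-1, ifo-1, egg-6, the lpr genes, sym-1, the remaining furrow collagens, bli-1, bli-2, dpy-18, bli-3, nas-37, elt-2 and F10B5.3. The comparison and the 31 lists were chosen with earlier results of these data known.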

Additional observations from a re-analysis of the deposited data

Results flagged for a closer look

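Among the 106 named genes, 212 groups of 4 libraries were checked by Dixon's 95% critical value for the gap over the range. It assumes like replicates, while each group holds neighbouring hours of 2 cycles, so no chance share is given. In 20 groups 1 value lay far from the other 3. Of these, 7 were the library of 26 h, the highest of the mid-cycle group: col-42 (13.7 CPM), fipr-1 (9.17 CPM), fipr-2 (8.20 CPM), nas-9 (14.996 CPM), nlp-26 (5.73 CPM), gst-41 (1.84 CPM) and spp-24 (7.13 CPM). All 7 genes were called higher in early-cycle hours. At 27 h, outside the comparison, col-42, fipr-1, fipr-2, nas-9 and nlp-26 were higher still (70.9, 47.1, 35.7, 43.8 and 18.7 CPM). In the mid-cycle group myrf-1 also stood out at 34 h (16.6 CPM), cpr-4 at 33 h (711 CPM), and vit-2 and grl-27 at 34 h (174 and 56.3 CPM). Among early-cycle libraries 21 h stood out for col-149 (525 CPM), nas-7 (15.02 CPM) and idpc-6 (0.0433 CPM, a single count). The library of 22 h stood out for nhr-73 (7.30 CPM), 29 h for col-98 (717 CPM), and 30 h for rol-1 (59.9 CPM), ttr-14 (5.70 CPM), ttr-34 (2.68 CPM) and grl-27 (0.0495 CPM, a single count).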

How the results depend on the processing

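The counts of 746 genes higher and 1883 lower stayed within 1.5 times with DESeq2 size factors (722 and 1926), total counts as the scaling (701 and 1907), no low count filter (729 and 1911), DESeq2 (845 and 2236), limma (691 and 1523), a replicate block by pairs 4 h apart (533 and 1402) and all 16 libraries (796 and 2072). Without a replicate block, that is with no cycle term, they were 449 and 706. With linear time in place of the block they were 600 and 824. With no minimum fold they were 1411 and 2502, and with a minimum log2 difference of 2 they were 356 and 1191. The first cycle alone gave 122 and 267, and the last 632 and 1634. Leaving out 1 library at a time gave 528 to 795 higher and 1269 to 1916 lower, the lowest of both without 34 h. The phase by cycle term called 1 gene, against 5 without the filter, 214 with DESeq2, 14 with limma, 3 with all 16 libraries and 0 to 3 with 1 library left out. The share of called genes with the same sign in course B was 99.2%, 99.3% with a pseudocount of 0.1 and 70.3% with the same title hours. The first 2 shares use hours matched to course A over genes that include the called ones.

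Of the 106 named genes, 1 kept its sign and lost its call with DESeq2, 10 with limma, 16 with linear time and 52 of the 81 with a value in the first cycle alone. Of the named genes called in the report, 6 turned sign, all with linear time: acdh-8 (0.93), rpl-42 (0.36), ssp-31 (0.22), msp-50 (0.86), vit-2 (2.102) and his-70 (1.92). A straight line of time takes up only a steady change over the course, and the cause of the turned signs was not tested. No numbers in the labels pair the libraries. The paired fit used neighbours 4 h apart, whose deviations from their phase means correlated at 0.451 to 0.714, and the cause of its lower counts was not tested. Depth limits the low genes: 3 counts over a group of 4 libraries are the floor for a fold against a group with no counts.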

Other observations

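Other families, counted by name after the values were seen and so without a test, held more calls in one direction than in the other. Over all tested genes 4.91% were higher and 12.4% lower (3.95% and 5.43% with linear time), so lower calls were the more common kind throughout. With the block, 50% of the lips and 60% of the idpp genes given next were lower. Higher calls made up 33.3% of the dhs and 40% of the ncx genes. Of 10 lipase-like lips genes 5 were lower in early-cycle hours (4 with linear time), and lips-3 had 5.20, 5.52, 3.25 and 4.06 CPM at 21, 22, 29 and 30 h, against 302, 133, 263 and 247 CPM at 25, 26, 33 and 34 h. Of 15 idpp genes 9 were lower and 3 higher (10 and 2 with linear time). idpp-7 had a log2 difference of -5.54 ± 0.42 and idpp-16 one of 4.41 ± 0.38, so that members of this family were called in opposite directions. Of 30 short-chain dehydrogenase genes of the dhs family 10 were higher and 1 lower (8 and 0 with linear time). dhs-27 had 50.6, 73.4, 63.3 and 53.1 CPM at 21, 22, 29 and 30 h, against 6.90, 5.63, 7.55 and 7.46 CPM at 25, 26, 33 and 34 h. Of 10 sodium-calcium exchanger genes 4 were higher and 0 lower by edgeR (3 and 0 with linear time), with ncx-8 at 3.93 ± 0.49 and ncx-2 at 1.89 ± 0.21.

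In 3 families the calls depended on how time was handled. Of 22 neprilysin-like nep genes 12 were lower with the cycle block, against 2 lower and 2 higher with linear time. nep-1 was one of the 2 that stayed lower, with 30.2, 70.9, 29.8 and 65.999 CPM at 21, 22, 29 and 30 h, against 461, 127, 490.03 and 224 CPM at 25, 26, 33 and 34 h. Of 15 irld genes, which resemble the insulin receptor ligand domain, 7 were lower with the block and 0 with linear time. Of 14 P-glycoprotein genes 5 were higher with the block and 0 with linear time. With the block the shares lower were 54.5% (nep) and 46.7% (irld), beside 12.4% of all tested genes. The share of P-glycoprotein genes higher was 35.7%, beside 4.91%. pgp-5 had 492, 154, 123 and 41.4 CPM at 21, 22, 29 and 30 h, against 17.4, 49.1, 23.6 and 38.4 CPM at 25, 26, 33 and 34 h, and its groups overlapped.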
